A study of Homo sapiens with 6 samples.

Results

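The genes described here are 27 that act in cholesterol synthesis, in the control of that synthesis by the sterol regulatory element-binding proteins (SREBPs), and in sterol transport. They were chosen by name, and all 27 were found among the 17787 gene symbols of the series. RNA was sequenced from A549, an established human line grown from a lung adenocarcinoma, in 6 libraries. In 3 libraries the cells carried siFOXD3, named for a small interfering RNA against the transcription factor FOXD3, and in 3 they carried siNC, which served as the control and has the genotype label wild type. The labels give no dose, time after transfection, medium or serum, and leave unsaid whether the replicates came from separate cultures. The p-values therefore measure spread among these libraries alone, which may be technical. Values are FPKM, sequenced fragments scaled to transcript length and to the mapped fragments of the library, which allows levels of different genes to be set side by side.

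Animal cells build cholesterol from acetyl-CoA through mevalonate, farnesyl diphosphate, squalene and lanosterol. Farnesyl diphosphate is also the source of the isoprenoid groups that anchor small GTPases to membranes. When sterol in the endoplasmic reticulum is low, SCAP escorts the SREBP precursors to the Golgi, where proteases release the transcription factor. When sterol is high, INSIG proteins hold SCAP and SREBP back. Most enzymes of the pathway, and INSIG1, are textbook SREBP targets, whereas efflux pumps such as ABCA1 answer to the oxysterol receptor LXR.

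FOXD3 itself was near the detection limit. It was listed at 0.0749 FPKM in siFOXD3 replicate 2 and was absent from siFOXD3 replicates 1 and 3, against 0.152, 0.291 and 0.134 FPKM in siNC replicates 1 to 3. All 7 markers listed for lung carcinoma epithelium were at 1 FPKM or more in both groups, and their summed level was 8316 to 8364 FPKM in siFOXD3 and 5696 to 6705 FPKM in siNC. Most of that sum was KRT8, KRT18 and KRT19. KRT8, KRT18, EPCAM, AKR1B10 and NQO1 were called higher and KRT19 was not called. CDH1 was called lower, at means of 41.3 FPKM in siFOXD3 and 48.2 FPKM in siNC. The extraction label speaks of retinas, but the 7 photoreceptor markers summed to 0.767 to 1.10 FPKM in siFOXD3 and 0.555 to 1.09 FPKM in siNC, with SAG, GNAT1 and RCVRN at 0 in every library. The 6 leukocyte markers summed to 24.5 to 28.0 FPKM in siFOXD3 and 88.2 to 101 FPKM in siNC. Nearly all of that sum was LCP1, which carcinoma lines also express, and the common leukocyte antigen PTPRC averaged 0.194 FPKM in siFOXD3 and 0.227 FPKM in siNC. Fibroblast markers summed to 2.96 to 3.56 FPKM in siFOXD3 and 3.55 to 4.46 FPKM in siNC, with DCN and LUM at 0, and hepatocyte markers summed to 0.0939 to 0.194 FPKM in siFOXD3 and 0.211 to 0.611 FPKM in siNC, with ALB at 0. WDR5 and SET, the genes that the series title places under FOXD3 repression, averaged 34.0 ± 1.63 and 318 ± 7.60 FPKM in siFOXD3, against 20.1 ± 1.13 and 217 ± 8.26 FPKM in siNC (SD, n = 3 each). Depth, estimated from the spacing of low values, was 7240000 to 9040000 fragments a library.

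Most cholesterol genes were lower in siFOXD3 cells. Of 27 members, 26 passed the filter of at least 1 FPKM in at least 3 libraries, and of these limma with Benjamini-Hochberg adjustment over 12555 genes called 19 lower and 2 higher and left 5 uncalled. Among all tested genes 38.7% were called lower, 27.2% higher and 65.9% in either direction, against 73.1% lower, 7.69% higher and 80.8% in either direction for the members. The siFOXD3 and siNC values did not overlap for 22 members, siFOXD3 being below in 20 and above in 2, and over all tested genes 70.7% did not overlap, with siFOXD3 below in 41.1% and above in 29.6%. The median log2 fold change was -0.53 over the members and -0.08 over all tested genes. In bulk RNA, fewer cells that express a gene and less RNA of it per cell cannot be told apart.

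**Figure D1:**
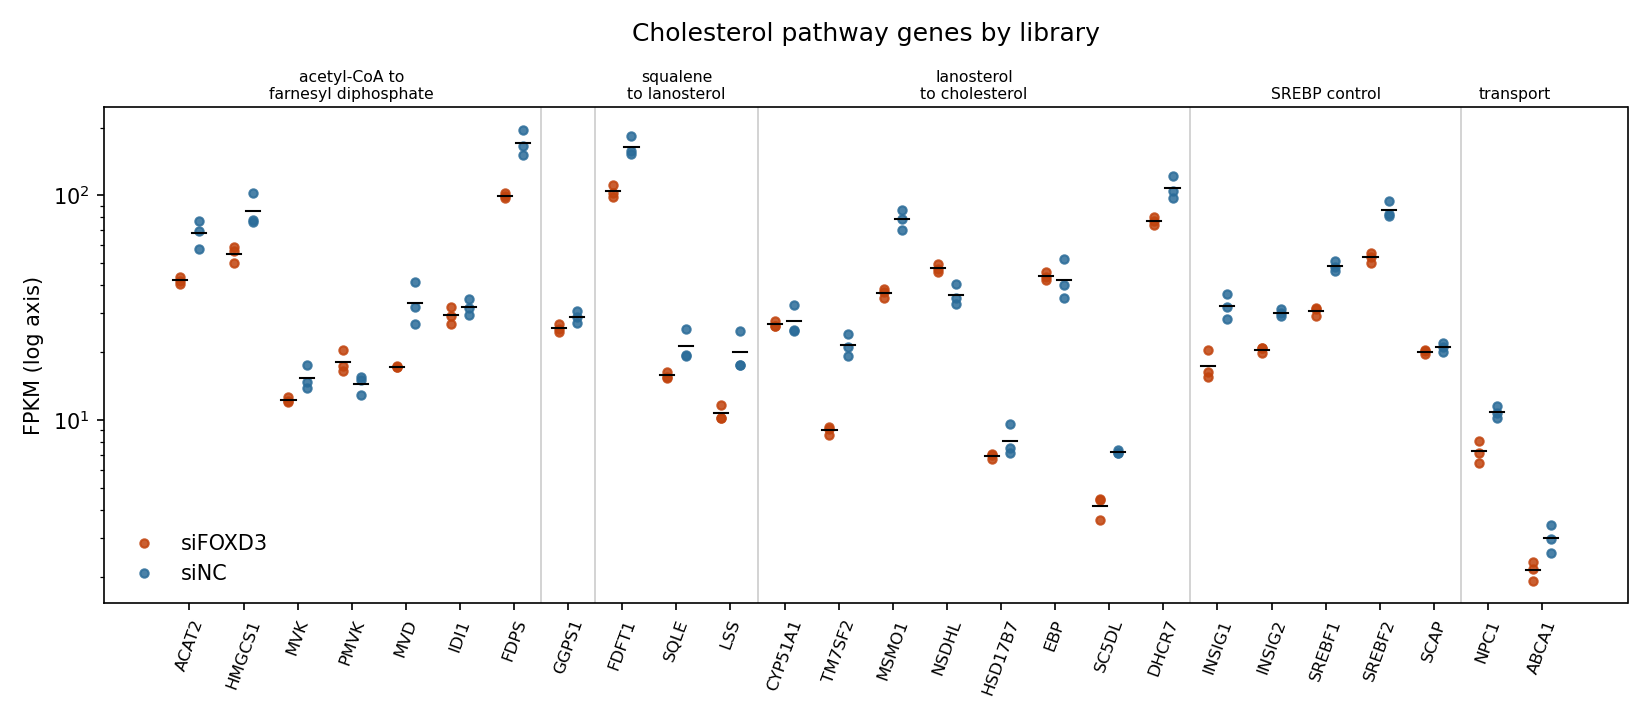
FPKM of each tested member in each library on a log axis, siFOXD3 in orange left of siNC in blue, with a black line at the mean of 3 libraries. FDPS and FDFT1 were the most abundant in siNC at means of 171 and 165 FPKM, ABCA1 the lowest in siNC at 2.99 FPKM, and only PMVK and NSDHL had all siFOXD3 points above all siNC points.

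**Figure D2:**
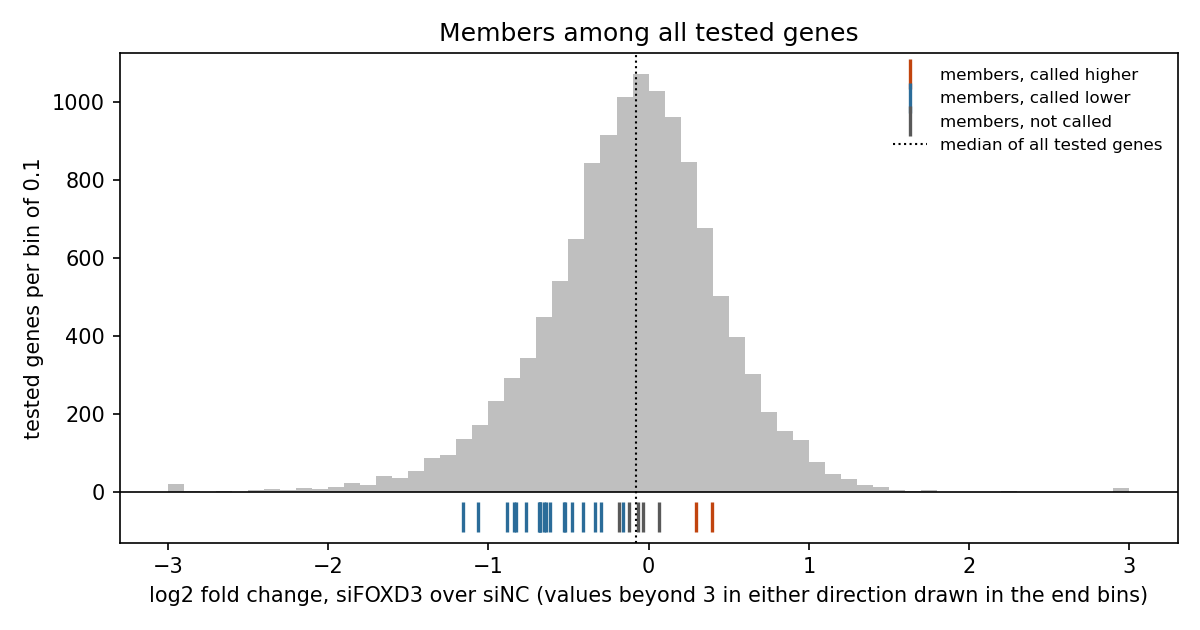
Histogram of the log2 fold change, siFOXD3 over siNC, of all 12555 tested genes, with a tick for each tested member below it, coloured by call. The members spread from -1.16 to 0.39, most of them left of the dotted line at the all-gene median of -0.08.

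Replicate 1 of siNC held the highest value of its group for 21 of 26 tested members and for 16 of the 18 synthesis enzymes, whereas it held the highest value of the group for 34.7% of all tested genes. Within siFOXD3, replicate 1 was highest for 8, replicate 2 for 3 and replicate 3 for 7 of the 18 enzymes. Without siNC replicate 1 the members' median log2 fold change was -0.48, with 19 members called lower and 3 called higher, the added one being EBP. Scaling also bears on the size of the changes. Median-of-ratios scaling moved the median of all genes to 0.03 and the share of called genes that were lower to 46.9%, against 58.7% as deposited, and with it 16 members were called lower and 2 higher.

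RefSeq (GRCh38.p14) supplied the 250 bases before and 50 bases after the start of 24 members, with ACAT2, FDFT1 and SQLE not matched. The form TCACNCCAC of the sterol regulatory element, the site that SREBPs bind, was searched on both strands. It stood in 1 member promoter, that of SREBF2, and in 1.11% of 9842 promoters of tested genes. CCAAT, the box bound by NF-Y, a partner of SREBP, searched like the next motifs on both strands and not overlapping TCACNCCAC in any promoter shown, was in 15 of the 24 member promoters (62.5%) and in 36.6% of those of tested genes. At least 2 CCAAT boxes, a count added after the sequences were seen and with overlapping boxes counted separately, were in 10 member promoters (41.7%) and in 13.8% of those of tested genes. GGGCGG, the core of the Sp1 site, was in 91.7% of member promoters and 71.1% of those of tested genes, and the E-box CACGTG in 20.8% and 10.3%.

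Promoters are shown for SREBF2 with its sterol regulatory element, for MSMO1 and MVD as genes that fell and hold several CCAAT boxes, and for NSDHL and PMVK as the members that rose. Each runs 5′ to 3′ along the gene, and capitals mark TCACNCCAC and CCAAT on either strand, the box reading ATTGG where it lies on the other strand.
SREBF2, chr22:41832855-41833154, plus strand: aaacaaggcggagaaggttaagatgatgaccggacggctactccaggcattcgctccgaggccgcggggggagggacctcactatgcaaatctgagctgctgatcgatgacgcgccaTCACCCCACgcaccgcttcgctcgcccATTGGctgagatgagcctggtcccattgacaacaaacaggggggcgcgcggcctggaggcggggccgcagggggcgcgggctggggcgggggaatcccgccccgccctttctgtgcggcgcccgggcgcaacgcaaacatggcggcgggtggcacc
MSMO1, chr4:165327419-165327718, plus strand: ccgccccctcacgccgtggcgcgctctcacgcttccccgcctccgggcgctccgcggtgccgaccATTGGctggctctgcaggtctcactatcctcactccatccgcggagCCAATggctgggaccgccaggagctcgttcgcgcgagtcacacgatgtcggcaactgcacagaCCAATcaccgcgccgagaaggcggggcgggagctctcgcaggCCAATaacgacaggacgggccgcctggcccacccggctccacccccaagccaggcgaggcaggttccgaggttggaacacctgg
MVD, chr16:88663042-88663341, minus strand: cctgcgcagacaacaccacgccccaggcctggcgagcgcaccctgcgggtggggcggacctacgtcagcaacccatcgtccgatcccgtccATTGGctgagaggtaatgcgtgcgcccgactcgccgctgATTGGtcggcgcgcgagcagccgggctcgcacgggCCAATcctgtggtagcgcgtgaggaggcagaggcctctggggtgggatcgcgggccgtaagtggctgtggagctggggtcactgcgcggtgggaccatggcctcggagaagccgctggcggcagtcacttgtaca
NSDHL, chrX:152830813-152831112, plus strand: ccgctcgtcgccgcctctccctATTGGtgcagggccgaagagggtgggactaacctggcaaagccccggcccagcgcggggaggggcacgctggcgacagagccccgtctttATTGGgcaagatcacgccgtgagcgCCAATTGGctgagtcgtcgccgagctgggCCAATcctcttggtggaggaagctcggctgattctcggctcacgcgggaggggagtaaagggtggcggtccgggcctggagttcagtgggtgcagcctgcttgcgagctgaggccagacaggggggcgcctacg
PMVK, chr1:154936670-154936969, minus strand: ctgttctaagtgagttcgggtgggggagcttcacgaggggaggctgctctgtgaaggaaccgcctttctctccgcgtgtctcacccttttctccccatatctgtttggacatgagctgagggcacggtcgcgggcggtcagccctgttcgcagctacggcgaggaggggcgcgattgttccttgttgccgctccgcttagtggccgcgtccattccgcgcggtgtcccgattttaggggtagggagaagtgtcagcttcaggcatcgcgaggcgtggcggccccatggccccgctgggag

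Boxes stood in promoters of members that fell and of members that rose. NSDHL, which rose, had 5 CCAAT boxes and MSMO1, which fell, had 4, while PMVK had none and TM7SF2, which fell most of all members, had 1. Of 16 members called lower with a promoter, 11 had at least 1 box, and those with none were GGPS1, INSIG2, ABCA1, SREBF1 and NPC1. A match of letters is a description of these windows and says nothing of binding.

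In the first part of the pathway, from acetyl-CoA to farnesyl diphosphate, 5 of 7 members were called lower (71.4%) and 1 higher (14.3%). Among all tested genes these shares were 38.7% and 27.2%. The members do not cover every step of this part. The summed level of the 7 was 284, 266 and 269.6 FPKM in siFOXD3 replicates 1 to 3, against 482, 405 and 370.3 FPKM in siNC replicates 1 to 3. For this sum siFOXD3 averaged 65.2% of siNC. ACAT2, which condenses acetyl-CoA, had 43.3, 40.4 and 41.7 FPKM in siFOXD3 and 76.7, 69.1 and 57.5 FPKM in siNC. HMGCS1, which makes HMG-CoA, had 58.6, 49.9 and 56.3 FPKM in siFOXD3 and 103, 77.5 and 76.1 FPKM in siNC. Both genes had all siFOXD3 values below all siNC values, with log2 fold changes of -0.68 ± 0.09 for ACAT2 (SE, limma, adjusted p = 8.09e-05) and -0.62 ± 0.11 for HMGCS1 (adjusted p = 0.000509). Without siNC replicate 1 they were -0.58 for ACAT2 and -0.48 for HMGCS1. Counting was not stated to use strand, and ACAT2 shares exon sequence on the opposite strand with SOD2, at a mean of 49.2 FPKM in siFOXD3 and 227 FPKM in siNC, and with TCP1, at 233 FPKM in siFOXD3 and 124 FPKM in siNC, so its level is uncertain.

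The mevalonate kinases moved in opposite directions. MVK, which phosphorylates mevalonate, had 12.6, 12.2 and 12.0 FPKM in siFOXD3 and 17.6, 13.9 and 14.7 FPKM in siNC. PMVK, which adds the next phosphate, had 17.3, 20.5 and 16.5 FPKM in siFOXD3 and 13.0, 15.5 and 15.1 FPKM in siNC. MVK fell by 0.30 ± 0.09 on the log2 scale (SE, limma, adjusted p = 0.0109) and PMVK rose by 0.30 ± 0.09 (adjusted p = 0.0168), and neither gene's groups overlapped. MVK was not called with median-of-ratios scaling (-0.19, adjusted p = 0.086) and PMVK was not called without siFOXD3 replicate 2 (0.21, adjusted p = 0.0748). MVK shares exon sequence on the opposite strand with MMAB, a cobalamin enzyme, at 6.68 FPKM in siFOXD3 and 10.2 FPKM in siNC.

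MVD, which decarboxylates mevalonate diphosphate to isopentenyl diphosphate, showed the largest fall of the members in this segment. It had 17.5, 17.2 and 17.2 FPKM in siFOXD3 and 41.3, 31.9 and 26.6 FPKM in siNC. The siFOXD3 values were tightly grouped, and the siNC values were spread, with replicate 1 the highest. Its log2 fold change was -0.88 ± 0.12 (SE, limma, adjusted p = 0.000122), and -0.72 without siNC replicate 1. IDI1, which isomerizes isopentenyl diphosphate, averaged 29.2 ± 2.45 FPKM in siFOXD3 and 31.9 ± 2.74 FPKM in siNC (SD, n = 3 each), with overlapping groups and a log2 fold change of -0.12 ± 0.08 (SE, limma, adjusted p = 0.193). FDPS, which joins the isoprene units into farnesyl diphosphate, had 103, 97.1 and 99.1 FPKM in siFOXD3 and 196, 166 and 151 FPKM in siNC, a log2 fold change of -0.76 ± 0.08 (adjusted p = 1.74e-05). FDPS has 8 annotated pseudogenes that may share its reads.

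**Figure D3:**
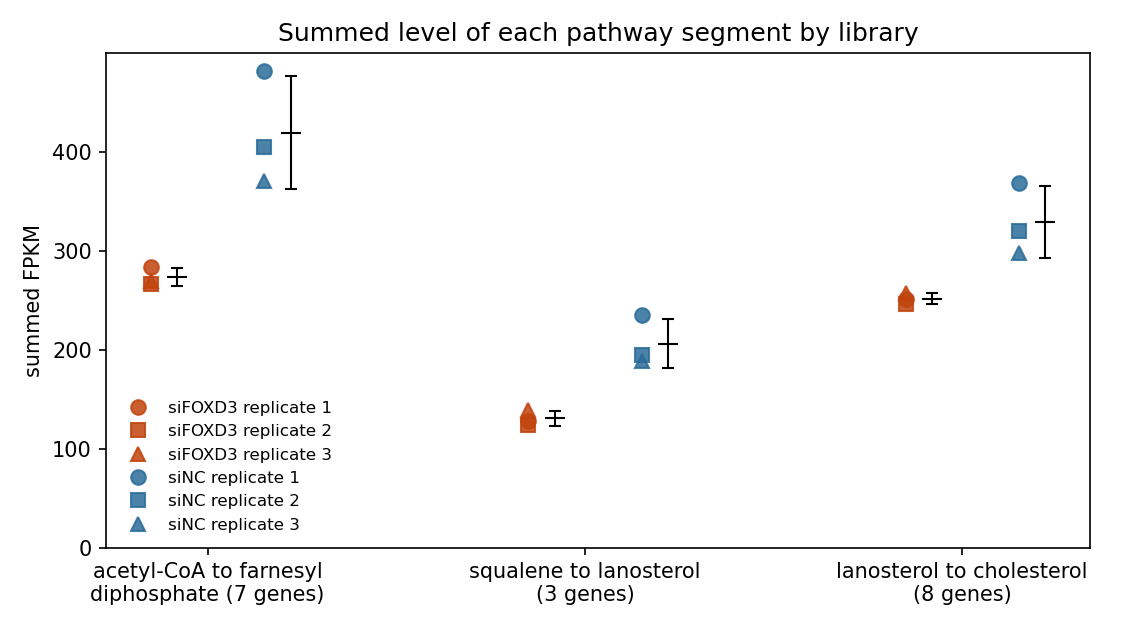
Summed FPKM of the member enzymes of 3 pathway segments in each library, siFOXD3 in orange left of siNC in blue, with the mean and SD of 3 libraries in black. In each segment the siFOXD3 libraries lie below the siNC libraries, and siNC replicate 1 is the highest library.

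At farnesyl diphosphate the pathway forks. GGPS1, which diverts it to geranylgeranyl diphosphate, averaged 25.6 ± 1.06 FPKM in siFOXD3 and 28.8 ± 1.72 FPKM in siNC (SD, n = 3 each), a log2 fold change of -0.16 ± 0.06 (SE, limma, adjusted p = 0.0432). That call was lost under 9 of the 15 other settings, and the gene shares exon sequence with TBCE, which was at 19.7 FPKM in siFOXD3 and 19.0 FPKM in siNC. FDFT1, squalene synthase, commits the intermediate to sterols. It had 103, 98.6 and 111 FPKM in siFOXD3 and 184, 157 and 152 FPKM in siNC, with no overlap and a log2 fold change of -0.65 ± 0.07 (adjusted p = 2.56e-05).

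FDFT1 and the enzymes from squalene to lanosterol were all called lower, 3 of 3, against 38.7% of all tested genes. SQLE, the epoxidase that is a rate-limiting step of the pathway, had 15.6, 15.5 and 16.4 FPKM in siFOXD3 and 25.5, 19.5 and 19.3 FPKM in siNC. LSS, which cyclizes the epoxide to lanosterol, had 10.3, 10.2 and 11.7 FPKM in siFOXD3 and 25.0, 17.5 and 17.5 FPKM in siNC. For both, siNC replicate 1 stood above the other siNC libraries and every siFOXD3 library lay below every siNC library. The log2 fold changes were -0.41 ± 0.10 for SQLE (SE, limma, adjusted p = 0.00405) and -0.83 ± 0.12 for LSS (adjusted p = 0.000193), and without siNC replicate 1 they were -0.28 and -0.66. The summed level of FDFT1, SQLE and LSS in siFOXD3 was 63.3% of that in siNC.

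Of the 8 members from lanosterol to cholesterol, 4 were called lower (50%), 1 higher (12.5%) and 3 were uncalled. Among all tested genes 38.7% were called lower and 27.2% higher. TM7SF2, a C14 sterol reductase, fell most of all members, to 9.34, 9.16 and 8.59 FPKM in siFOXD3, against 19.2, 24.1 and 21.2 FPKM in siNC. Of the 18 enzymes, TM7SF2 and PMVK had their lowest siNC value in replicate 1. Its log2 fold change was -1.16 ± 0.08 (SE, limma, adjusted p = 1.29e-06), with 4.04% of tested genes at or below it. CYP51A1, which acts on lanosterol just before that reductase step, had 26.2, 26.3 and 27.7 FPKM in siFOXD3 and 32.4, 25.3 and 24.9 FPKM in siNC. Its groups overlapped, its log2 fold change was -0.03 ± 0.09 (adjusted p = 0.775), and the sign turned to 0.09 without siNC replicate 1 and to 0.08 with median-of-ratios scaling. CYP51A1 shares 2844 bases of exon sequence on the same strand with the protein-coding AC000120.2, a symbol not found in the series. Its annotated pseudogenes CYP51A1P1, CYP51A1P2 and CYP51A1P3 may also share its reads, so its level is uncertain.

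The enzymes that remove the C4 methyl groups of the sterol, MSMO1, NSDHL and HSD17B7, act in sequence, and 1 was called lower, 1 higher and 1 was uncalled. MSMO1, the oxidase, had 37.0, 34.9 and 38.5 FPKM in siFOXD3 and 85.6, 78.7 and 70.1 FPKM in siNC, a log2 fold change of -1.06 ± 0.07 (SE, limma, adjusted p = 9.1e-07). NSDHL, the dehydrogenase that follows it, had 47.2, 49.6 and 45.8 FPKM in siFOXD3 and 40.3, 32.8 and 35.1 FPKM in siNC, a log2 fold change of 0.39 ± 0.07 (adjusted p = 0.000871). Thus MSMO1 exceeded NSDHL in every siNC library, and NSDHL exceeded MSMO1 in every siFOXD3 library. HSD17B7, the ketoreductase, averaged 6.92 ± 0.184 FPKM in siFOXD3 and 8.06 ± 1.32 FPKM in siNC (SD, n = 3 each) and was not called (-0.19 ± 0.10, adjusted p = 0.131), although its groups did not overlap. Its log2 fold change was -0.07 without siNC replicate 1, -0.08 with median-of-ratios scaling and -0.04 with quantile normalization. Its pseudogene HSD17B7P2 is listed in the files and may share reads.

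Of the last enzymes, EBP, the sterol isomerase, was not called. It had 43.4, 41.8 and 45.6 FPKM in siFOXD3 and 51.9, 39.7 and 34.8 FPKM in siNC, a log2 fold change of 0.07 ± 0.12 (SE, limma, adjusted p = 0.629). Without siNC replicate 1 it was 0.22 and called (adjusted p = 0.0126), and without siNC replicate 3 it was -0.06. SC5DL, now named SC5D, the lathosterol desaturase, had 4.48, 3.58 and 4.40 FPKM in siFOXD3 and 7.35, 7.16 and 7.14 FPKM in siNC, a log2 fold change of -0.68 ± 0.09 (adjusted p = 9.44e-05). DHCR7, which makes cholesterol from 7-dehydrocholesterol, had 76.7, 74.1 and 79.8 FPKM in siFOXD3 and 122, 105 and 96.9 FPKM in siNC, a log2 fold change of -0.48 ± 0.08 (adjusted p = 0.00031). SC5DL and DHCR7 act one after the other, and in neither did the groups overlap.

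**Figure D4:**
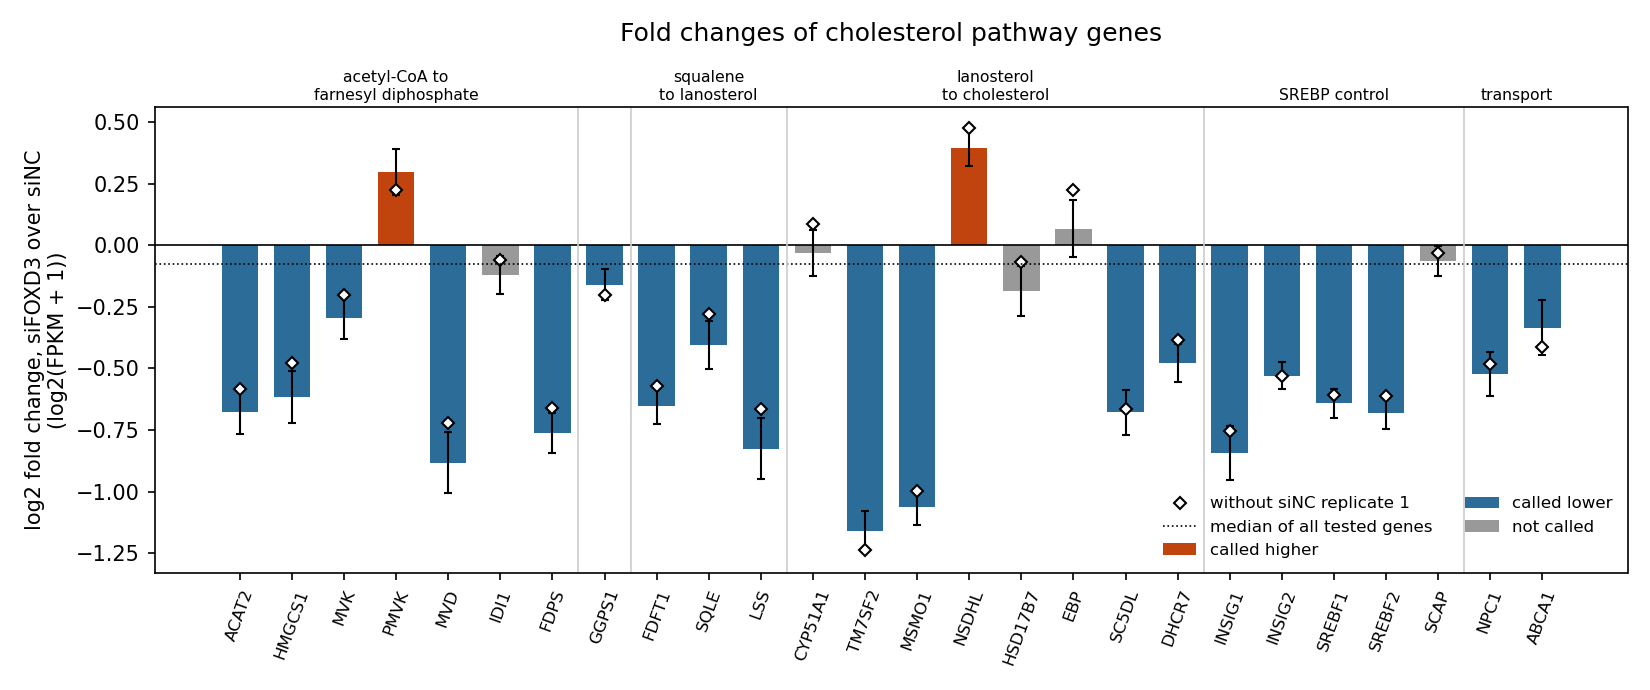
Log2 fold change, siFOXD3 over siNC, of each tested member with its SE (limma), coloured by call, with open diamonds for the value without siNC replicate 1 and a dotted line at the all-gene median. TM7SF2 at -1.16 and MSMO1 at -1.06 are the lowest bars, PMVK at 0.30 and NSDHL at 0.39 the only called rises, and most diamonds of enzymes lie nearer 0 than their bars.

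The messages of the SREBPs themselves were lower in siFOXD3. SREBF2, whose product is the main activator of cholesterol genes, had 53.3, 50.2 and 55.5 FPKM in siFOXD3 and 93.9, 80.7 and 82.3 FPKM in siNC. SREBF1, whose product acts more on fatty acid genes, had 31.6, 29.1 and 31.3 FPKM in siFOXD3 and 50.9, 48.2 and 46.3 FPKM in siNC. No siFOXD3 value of either gene reached a siNC value, and their log2 fold changes were alike, at -0.68 ± 0.07 for SREBF2 (SE, limma, adjusted p = 9.58e-06) and -0.64 ± 0.06 for SREBF1 (adjusted p = 5.54e-06). The ratio of SREBF1 to SREBF2 was 0.579 ± 0.0142 in siFOXD3 and 0.567 ± 0.0282 in siNC (SD, n = 3 each; two-sided exact permutation p = 0.6). SREBF1 shares exon sequence on the opposite strand with RAI1, at 12.2 FPKM in siFOXD3 and 12.8 FPKM in siNC, and gene-level FPKM does not separate its isoforms SREBP-1a and SREBP-1c.

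The messages of both retention proteins were also lower. INSIG1, itself an SREBP target, had 16.3, 15.6 and 20.5 FPKM in siFOXD3 and 36.2, 31.9 and 28.1 FPKM in siNC, a log2 fold change of -0.84 ± 0.11 (SE, limma, adjusted p = 7.63e-05). INSIG2, which is controlled separately, had 20.9, 19.8 and 20.8 FPKM in siFOXD3 and 29.9, 29.1 and 31.2 FPKM in siNC, a log2 fold change of -0.53 ± 0.06 (adjusted p = 1.72e-05). The ratio of INSIG1 to INSIG2 was 0.780, 0.787 and 0.985 in siFOXD3 and 1.21, 1.10 and 0.902 in siNC, with overlapping groups (two-sided exact permutation p = 0.2, smallest possible p = 0.1). SCAP, the escort, averaged 20.1 ± 0.355 FPKM in siFOXD3 and 21.1 ± 1.06 FPKM in siNC (SD, n = 3 each) and was not called, with a log2 fold change of -0.06 ± 0.06 (SE, limma, adjusted p = 0.369) that was 0.05 with median-of-ratios scaling.

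Of the transport genes, NPC1, which moves cholesterol out of late endosomes and lysosomes, had 8.12, 7.18 and 6.48 FPKM in siFOXD3 and 11.5, 10.8 and 10.2 FPKM in siNC. The groups did not overlap, and its log2 fold change was -0.52 ± 0.09 (SE, limma, adjusted p = 0.000453). NPC1 shares 604 bases of exon sequence on the opposite strand with RMC1, a symbol not found in the series. Overlapping genes were looked up by their GENCODE 29 symbols alone, so RMC1 may be listed under another symbol. ABCA1, the efflux pump, was low, with 2.19, 1.94 and 2.33 FPKM in siFOXD3 and 2.57, 3.43 and 2.96 FPKM in siNC. Its log2 fold change was -0.34 ± 0.11 (adjusted p = 0.0223), and the call was lost with quantile normalization (-0.06, adjusted p = 0.644), with median-of-ratios scaling (-0.25, adjusted p = 0.0626), without siFOXD3 replicate 2 (-0.29, adjusted p = 0.0794), without siNC replicate 2 (-0.26, adjusted p = 0.0854) and without siNC replicate 3 (-0.34, adjusted p = 0.0505). STARD4, a soluble sterol carrier, did not pass the filter: it was listed at 0.0822 FPKM in siFOXD3 replicate 3 and was absent from siFOXD3 replicates 1 and 2, against 0.0864, 0.265 and 0.0872 FPKM in siNC replicates 1 to 3.

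The summed FPKM of the 8 members after lanosterol was divided by that of the 7 members up to farnesyl diphosphate. This ratio was 0.886, 0.925 and 0.953 in siFOXD3 and 0.765, 0.789 and 0.803 in siNC. Every siFOXD3 ratio exceeded every siNC ratio (log2 difference 0.23, two-sided exact permutation p = 0.1, the smallest that 3 libraries against 3 allow, and 0.4 adjusted over the 4 ratios computed). The ratio of the squalene to lanosterol enzymes over the same 7 was 0.478 ± 0.0329 in siFOXD3 and 0.492 ± 0.0159 in siNC (SD, n = 3 each; exact permutation p = 0.5).

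Neighbouring genes outside the 27 gave a mixed picture. Of 9 genes of sterol completion and acetyl-CoA supply, 4 were lower and 2 higher, against 38.7% and 27.2% of all tested genes. Their median log2 fold change was -0.10, against -0.08 over all tested genes. ACSS2, which makes acetyl-CoA from acetate and is a known SREBP target, fell to 11.7 ± 0.607 FPKM in siFOXD3, against 34.4 ± 2.80 FPKM in siNC (SD, n = 3 each). AACS, which activates acetoacetate, fell to 17.1 ± 0.564 FPKM in siFOXD3, against 23.4 ± 0.727 FPKM in siNC.

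The machinery of SREBP processing and of sterol-regulated protein degradation had 7 of 23 tested genes lower and 7 higher. Over all tested genes 38.7% were lower and 27.2% higher. The median of this list was -0.04, and 1 listed symbol was not found in the series. MBTPS2, the intramembrane protease that completes SREBP release, fell to 8.31 ± 0.628 FPKM in siFOXD3, against 12.4 ± 1.00 FPKM in siNC (log2 fold change -0.53), and SEC24D, a coat protein of vesicles leaving the endoplasmic reticulum, fell to 6.15 ± 0.716 FPKM in siFOXD3, against 9.37 ± 1.75 FPKM in siNC (-0.53).

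Of 24 genes of sterol transport, uptake and esterification, 14 were lower and 5 higher, against 38.7% and 27.2% of all tested genes. Their median was -0.22. LRP1, an endocytic lipoprotein receptor, fell by 1.24 on the log2 scale, to 5.34 ± 0.228 FPKM in siFOXD3, against 13.9 ± 0.629 FPKM in siNC, whereas its relative LRP8 rose by 0.96, to 44.0 ± 0.504 FPKM in siFOXD3, against 22.2 ± 0.949 FPKM in siNC. ABCG1, an LXR-driven efflux pump, was at 0.203, 0.124 and 0.277 FPKM in siFOXD3 and 2.11, 3.23 and 3.06 FPKM in siNC. Of 10 LXR genes, ABCG1 among them, 5 were lower and 1 higher, beside the same all-gene shares of 38.7% and 27.2%. Their median was -0.17. NR1H3, which encodes LXR alpha, fell to 7.69 ± 0.269 FPKM in siFOXD3, against 11.6 ± 1.73 FPKM in siNC, and RXRB, a partner receptor, fell by 0.43 on the log2 scale.

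The isoprenoid branch stood the other way, with 11 of 17 genes higher and 1 lower, against 27.2% and 38.7% of all tested genes. Its median was 0.39. FNTB, the farnesyltransferase beta subunit, rose to 5.93 ± 0.507 FPKM in siFOXD3, against 2.41 ± 0.315 FPKM in siNC. ZMPSTE24, a protease of prenylated proteins, rose to 48.3 ± 1.36 FPKM in siFOXD3, against 24.0 ± 0.449 FPKM in siNC, and PDSS1, which makes the tail of ubiquinone, to 5.45 ± 0.554 FPKM in siFOXD3, against 2.69 ± 0.305 FPKM in siNC.

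Of 10 tested SREBP-responsive fatty acid genes, 5 were lower and 2 higher, against 38.7% and 27.2% of all tested genes. Their median was -0.19. SCD, the stearoyl-CoA desaturase, fell to 151 ± 22.6 FPKM in siFOXD3, against 395 ± 31.8 FPKM in siNC (log2 fold change -1.39), and FADS2 fell by 0.75, while the elongase ELOVL6 rose by 0.58. All 10 proliferation genes were higher, against 27.2% of all tested genes, with a median of 0.75. MKI67 rose to 40.4 ± 0.958 FPKM in siFOXD3, against 17.3 ± 0.297 FPKM in siNC, CCNB1 by 1.29 and RRM2 by 0.97 on the log2 scale, and the part of proliferation in the sterol gene values was not tested. Each gene named from these lists as risen or fallen was called by limma, with Benjamini-Hochberg adjusted p-values up to 0.00437, and had no overlap between groups.

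**Figure D5:**
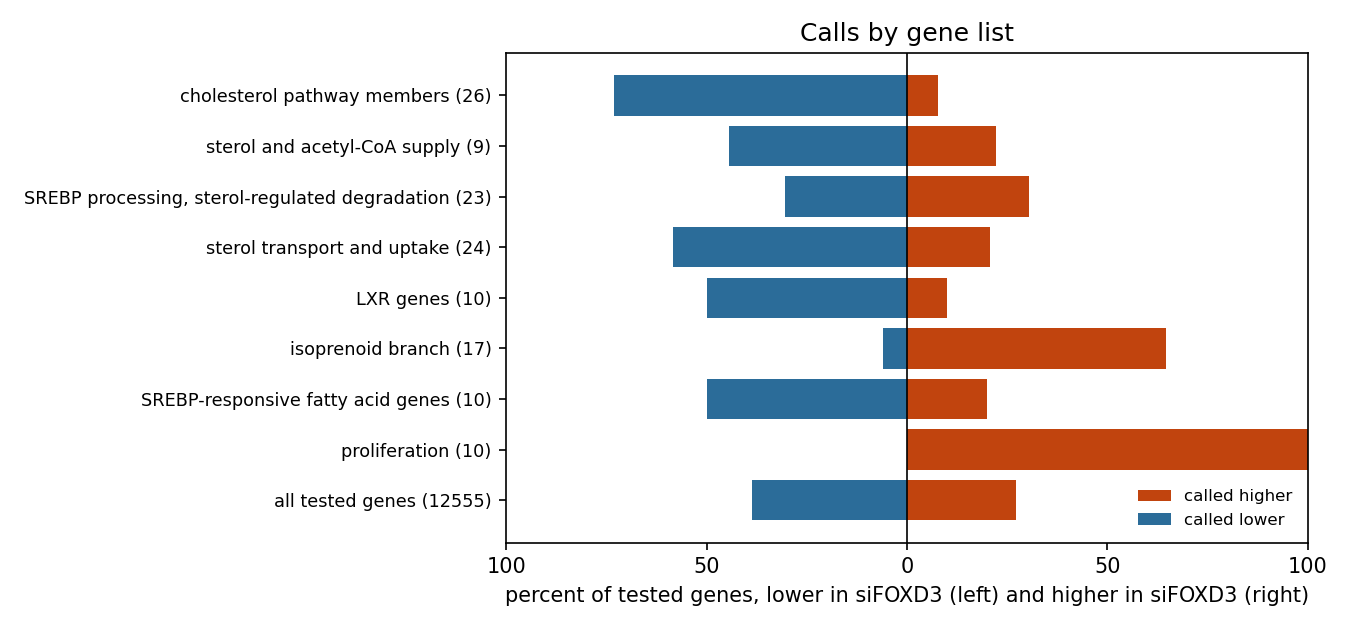
Percent of tested genes called lower (left, blue) and higher (right, orange) in siFOXD3 by limma, for the cholesterol members, 7 related lists and all tested genes, with the number tested in brackets. The members have 73.1% lower and 7.69% higher, against 38.7% and 27.2% of all tested genes, and the isoprenoid and proliferation lists lean to the right.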

How the data were processed

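The authors deposited 1 table of FPKM by gene symbol for each library, per the file headers. TopHat, Cufflinks and hg19 are named per the submitters' processing notes. No source used here states versions, annotation or strand handling. Libraries were made with an Illumina TruSeq RNA kit from Trizol RNA, per the labels' protocols. Groups came from sample titles. Rows of one symbol were summed and absent symbols set to 0. Genes reaching 1 FPKM in 3 or more libraries were tested on log2(FPKM + 1), a scale that understates changes of low genes, with limma 3.58.1 (trend and robust) in R 4.3.3, two-sided, Benjamini-Hochberg over all 12555 genes, called at an adjusted p under 0.05. Ratios were compared by exact permutation. The fit was tested on simulated data.

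The members, lists and tests were chosen with earlier results of these data known. Text names all members, FOXD3, WDR5, SET, and up to 3 called genes of largest change per list, of which some are not reported here; lists that cross share genes. Depth was estimated from 868 single-transcript genes with an assumed fragment length of 150 bases. Depths simulated around that same length were recovered within 5.64%, so error from a wrong assumed length was not measured. Squared differences between libraries of 1 group, over their estimated counting variance, had means of 1.60 to 3.84 (1 from noise alone) and medians of 0.521 to 0.826 (0.455 from noise alone) over 385 to 425 of these genes. Each library counted as 1 sample. Exon overlaps and pseudogenes came from GENCODE 29, which is on another build than hg19, and promoters from RefSeq. Python 3.11.15, pandas 2.3.3, numpy 2.4.6, scipy 1.17.1 and matplotlib 3.10.9 were used. Alternatives were other pseudocounts, filters, scalings, limma without trend and robust, a replicate block, the highest row per symbol and leaving out each library.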

Additional observations from a re-analysis of the deposited data

How the results depend on the processing

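Of 21 members called, 17 kept their call and direction under all 15 other settings; the exceptions were MVK, PMVK, GGPS1 and ABCA1. Members called lower numbered 16 to 19 and members called higher 1 to 3 over the settings. Leaving out 1 library each gave 17 to 19 lower and 1 to 3 higher, with the count of 1 without siFOXD3 replicate 2, where PMVK lost its call. The sign turned for CYP51A1 with median-of-ratios scaling (0.081) and without siNC replicate 1 (0.088; its range over leaving out 1 library each was -0.097 to 0.088), for SCAP with median-of-ratios scaling (0.048) and for EBP without siNC replicate 3 (-0.058), none of these values being called. EBP was 0.22 and called higher without siNC replicate 1. The log2 difference of the SREBF1 to SREBF2 ratio was -0.00013 to 0.070 over leaving out 1 library each, lowest without siNC replicate 1. The cause of these changes was not tested. Same-numbered libraries deviated from their group means with correlations of 0.0613, 0.163 and 0.115, each the highest for its library, but the labels do not say that a number marks a shared culture or day. With a replicate block 18 members were called lower and 2 higher, GGPS1 being lost (adjusted p = 0.067), and 8172 genes were called in all, against 8278 without it. ABCA1 was not in the fit with the stricter filter of 5 FPKM. STARD4, tested only with no filter, had a log2 fold change of -0.16 (limma, Benjamini-Hochberg adjusted p = 0.107).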
